A study of Mus musculus with 12 samples.

Results

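Antigen presentation through the major histocompatibility complex (MHC) was examined in tumor organoids through 10 listed genes of the 24906 in the deposited expression tables. The genes were the class I heavy chains H2-K1 and H2-D1, the shared light chain B2m, the peptide transporter subunits Tap1 and Tap2, the loading factor Tapbp, the immunoproteasome subunits Psmb8 and Psmb9, the class I transactivator Nlrc5 and the class II invariant chain Cd74. They were chosen by name, with earlier results of these data known, and all 10 were found in both tables. With dox-induced SMAD4, B2m, H2-K1 and Tapbp were higher in all 5 same-line pairs, as were 8.7% of all genes tested, while the transporter and immunoproteasome genes varied by line and had no shared direction. No member passed the threshold of an adjusted p under 0.05 with an absolute change over 1, which 0.0231% of all genes passed in BME and 0.0324% on plastic.

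RNA-Seq covered 12 libraries of mouse small intestine tumor organoids, which are cell clusters grown from tumor epithelium. All 12 libraries were labelled with the genotype Smad4KO;BRAFV600E/+ and pINDUCER-SMAD4, a lentivirus from which doxycycline (dox) induces SMAD4, the shared transcription factor of TGFβ and BMP signaling. Organoids grew in BME, a basement membrane extract for 3D culture, or on tissue culture plastic, and were collected after 48 h with 4 µg/mL dox or untreated. The BME libraries were untreated lines 682, 700 and 889 (3 libraries), dox-treated lines 700 and 889 (2 libraries) and 1 more from line 682 with a conflicting label. The plastic libraries were lines 560, 700 and 889, each untreated (3 libraries) and dox-treated (3 libraries). Per the study's methods, Smad4 was deleted by a Villin-driven inducible Cre, which is active in intestinal epithelium, and the construct lines were selected with puromycin. The number in a label was taken as the organoid line, so the dox and untreated libraries of a line form a pair. Per the study, the Cre was activated with tamoxifen at several weeks of age, and the organoids were derived from tumors some months later.

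The conflicting library was labelled mock dox in its treatment field, but by its title and genotype it was an induced library like the others. The study's methods also name a mock plasmid, and whether this library carried the construct was not tested. It was kept with the controls, as the study counts 4 vehicle and 2 dox libraries in BME. Smad4 checks these labels. Its level in BME, in FPKM (fragments scaled by transcript length and library depth), was 6.53 untreated and 17.2 with dox for line 700 and 6.23 and 27.3 for line 889, whereas the mock pair of line 682 had 8.88 untreated and 10.3 with mock dox. On plastic the level of Smad4 was 1.54 untreated and 73.6 with dox for line 560, 2.99 and 18.1 for line 700, and 4.76 and 48.9 for line 889. By limma, the test used below, the Smad4 change on the log2(FPKM + 1) scale was 1.36 (SE 0.27) in BME and 3.42 (SE 0.55) on plastic, with adjusted p-values of 0.959 and 0.162, so that the induced gene itself was not called with these arms. The libraries had 15723 to 16805 genes above 0, and the values correspond to an estimated 10200000 to 11700000 reads in BME and 12300000 to 15800000 on plastic over the genes with a matched length.

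MHC class I molecules display peptides from inside the cell to CD8 T cells on nearly every nucleated cell. Proteasomes cut proteins into peptides, the TAP transporter moves these into the endoplasmic reticulum, and tapasin (Tapbp) bridges the transporter to empty class I molecules until a peptide is bound. A class I molecule is a heavy chain such as H2-K or H2-D paired with beta-2-microglobulin, the product of B2m. Interferons raise most genes of this pathway, and NLRC5 drives many of them from a shared promoter module. MHC class II molecules display peptides taken up from outside the cell, chiefly on professional antigen-presenting cells, and intestinal epithelium can make them under interferon gamma. CD74 occupies the class II groove until a peptide replaces it.

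Most members lie close together in the MHC on mouse chromosome 17. In the NCBIM37 build, Psmb9 spans chr17:34318932-34324697 on the minus strand, Tap1 chr17:34324498-34334170, Psmb8 chr17:34334666-34338399 and Tap2 chr17:34340472-34353266, the last 3 on the plus strand. Tapbp lies at chr17:34052844-34066235, H2-K1 at chr17:34132962-34137278 on the minus strand and H2-D1 at chr17:35399675-35404444. B2m is outside the MHC at chr2:121973422-121978819 and Nlrc5 at chr8:96996663-97051172. Cd74 is also outside the MHC. Tap1 and Psmb9 are transcribed in opposite directions from neighboring starts.

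The upstream sequences of the members with the largest values, and the stretch between Tap1 and Psmb9, are shown because their levels are compared below. They were also searched for promoter elements that class I genes are known for. The sequences are from RefSeq (GRCm38.p6) and are written 5′ to 3′ on the strand of the gene, with the plus strand for the Tap1 and Psmb9 stretch. The elements were an interferon response type element (GAAANNGAA or GAANNGAAA), a kappaB element (GGGATTCCC), a Y box (ATTGG) and an X2 box core (TGACG), all searched on both strands. Capitals mark the matches. The H2-K1 stretch is chr17:34000348-34000547, the H2-D1 stretch chr17:35262894-35263093, the B2m stretch chr2:122147487-122147686, the Tapbp stretch chr17:33919278-33919477 and the stretch between Psmb9 and Tap1 chr17:34187331-34187555.
H2-K1: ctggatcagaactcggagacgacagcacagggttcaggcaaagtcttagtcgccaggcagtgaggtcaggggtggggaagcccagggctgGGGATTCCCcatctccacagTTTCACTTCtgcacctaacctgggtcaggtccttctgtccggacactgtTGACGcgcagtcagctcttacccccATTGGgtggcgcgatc
H2-D1: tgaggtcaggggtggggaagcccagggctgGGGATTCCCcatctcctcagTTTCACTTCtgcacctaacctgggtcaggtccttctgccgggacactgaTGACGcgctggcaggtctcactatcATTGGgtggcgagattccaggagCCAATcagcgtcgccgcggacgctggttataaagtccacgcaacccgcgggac
B2m: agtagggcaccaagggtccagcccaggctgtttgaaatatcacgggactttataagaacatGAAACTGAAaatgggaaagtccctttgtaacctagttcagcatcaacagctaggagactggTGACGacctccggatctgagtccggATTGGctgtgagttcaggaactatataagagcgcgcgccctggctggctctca
Tapbp: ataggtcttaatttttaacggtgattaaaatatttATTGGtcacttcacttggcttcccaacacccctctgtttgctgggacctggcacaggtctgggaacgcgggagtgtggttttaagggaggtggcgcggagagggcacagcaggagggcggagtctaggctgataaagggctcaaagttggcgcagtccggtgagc
Psmb9 to Tap1: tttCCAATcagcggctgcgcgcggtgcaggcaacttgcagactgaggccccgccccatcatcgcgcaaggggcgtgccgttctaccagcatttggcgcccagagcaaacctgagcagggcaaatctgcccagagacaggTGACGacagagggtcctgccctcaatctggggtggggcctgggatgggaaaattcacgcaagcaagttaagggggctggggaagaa

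H2-K1 and H2-D1 each held all 4 kinds of match in the same order, and their 250 upstream bases aligned with 161 of 177 columns identical (91.0%). In H2-D1 the kappaB match began at base -170 from the annotated start and the interferon response type match at -150. B2m held an interferon response type match at -139, an X2 box core at -78 and a Y box at -53, with no kappaB match. The 225 bases between the Psmb9 and Tap1 starts held a Y box and an X2 box core only. Tapbp held Y boxes only, at -248 and -165, and the first of these lies outside the 200 bases shown. Psmb8 had no match in its 250 upstream bases. Among 32851 promoters of the same length, 12.5% held the interferon response type letters, 0.301% the kappaB letters, 33.8% a Y box and 17.8% an X2 box core. A palindromic SMAD element (GTCTAGAC) was in 0.167% of these promoters and in no member searched. Tap2 and Nlrc5 were not matched to a promoter, and Cd74 was not searched. A match is a description of letters and says nothing of binding here.

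The order of the levels was similar in both environments. B2m had the highest level, with a median of 942 FPKM in BME and 929 on plastic. H2-K1 (medians 355 and 271) and H2-D1 (305 and 364) came next, and their ranges overlapped in both tables. Tapbp followed at 48.0 and 41.8. Tap1, Psmb9 and Tap2 had medians of 16.8, 11.3 and 7.97 in BME, and 3.47, 1.66 and 4.59 on plastic, and the ranges of all 3 overlapped on plastic. Cd74 had medians of 1.75 and 0.851, Psmb8 of 0.726 and 0.0441, and Nlrc5 of 0.0844 and 0.0414. Among these 10 genes, the highest levels were thus those of the class I chains. The tables were normalized apart, so levels were not tested between environments. In bulk RNA, more cells of a type and more RNA per cell cannot be told apart.

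**Figure D1:**
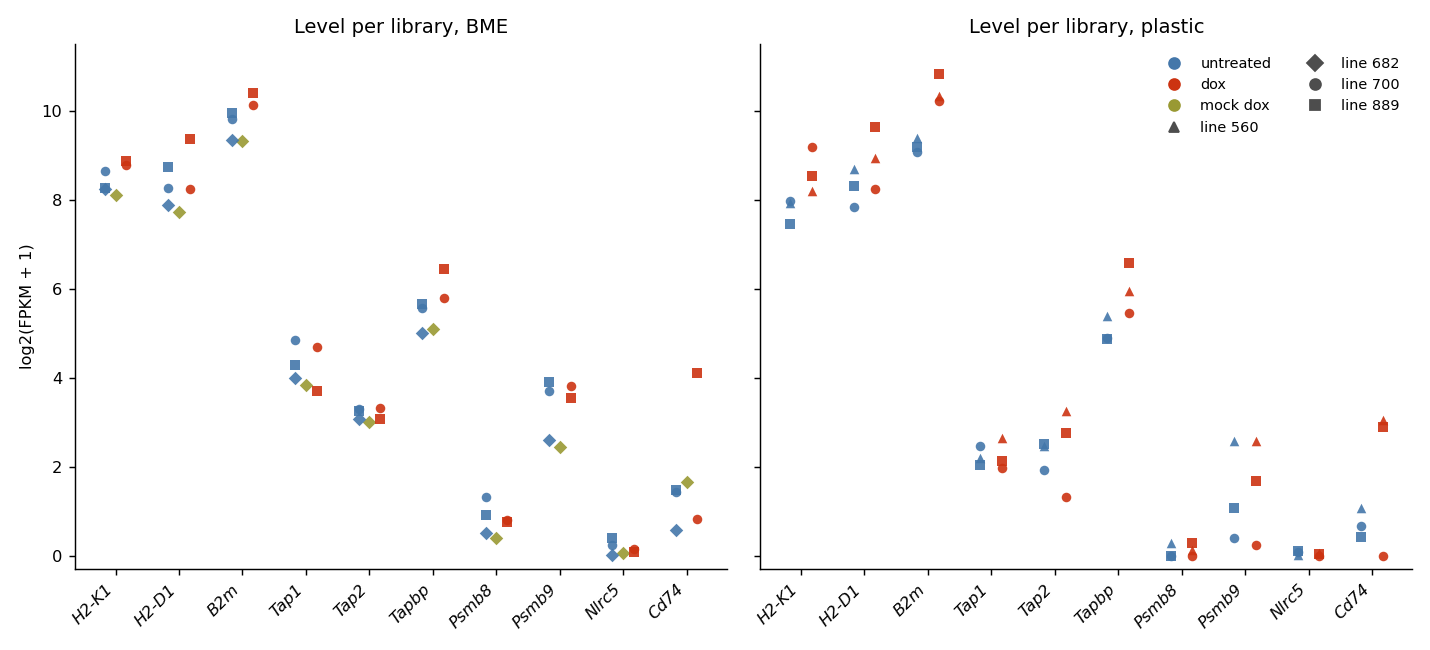
Level of each of the 10 genes in every library, as log2(FPKM + 1), with BME on the left and plastic on the right. Colors give the treatment and marker shapes the line. B2m, H2-K1 and H2-D1 sit at the top in both environments, and Psmb8 and Nlrc5 sit near 0.

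B2m, the light chain that every class I molecule needs, was higher with dox in each line. On plastic the B2m level was 664 FPKM untreated and 1292 with dox in line 560. In line 700 it was 537 and 1194, and in line 889 it was 577 and 1804. All 3 dox libraries lay above all 3 untreated libraries, with dox to untreated ratios of 1.95, 2.22 and 3.13 in lines 560, 700 and 889. In BME the level was 898 FPKM untreated and 1125 with dox in line 700, and 985 and 1358 in line 889. The mock pair of line 682 was level, with 645 untreated and 643 with mock dox. Both dox libraries of BME lay above the 4 control libraries, but the line 682 libraries, which have no dox partner in the comparison, were the lowest of all.

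By limma on log2(FPKM + 1), which understates the change of low genes, the B2m change with dox was 1.25 (SE 0.25) on plastic and 0.67 (SE 0.24) in BME. The adjusted p was 0.282 on plastic and 0.959 in BME, so B2m was called in neither. Blocking by line brought the BME change to 0.39 (adjusted p = 0.676).

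H2-K1, a classical class I heavy chain, showed its largest same-line differences on plastic. In line 560 the H2-K1 level was 243 FPKM untreated and 292 with dox, in line 700 it was 251.2 and 583, and in line 889 it was 175 and 372. The dox libraries all lay above the untreated libraries, with the smallest ratio, 1.20, in line 560. In BME line 700 had 403 untreated and 439 with dox, and line 889 had 307 and 471. The mock pair ran the other way, from 300.4 to 276. The limma change was 0.85 (SE 0.31) on plastic, with an adjusted p of 0.567, and 0.51 (SE 0.19) in BME, with an adjusted p of 0.959.

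H2-D1, the other classical heavy chain, varied more between lines. On plastic its level went from 413 to 491 FPKM in line 560, from 227 to 302 in line 700 and from 315 to 792 in line 889. It was higher with dox in every plastic pair, but the arms overlapped because untreated line 560 exceeded the dox library of line 700. In BME line 889 had 423 untreated and 662 with dox, while line 700 had 307 and 303, and the mock pair 234 and 210. The limma change was 0.66 in both environments (SE 0.40 in BME and 0.41 on plastic), with adjusted p-values of 0.959 and 0.736. Without the dox library of line 889 the BME change was 0.10, without that of line 700 it was 1.22, and with the line as a block it was 0.31. On plastic the H2-D1 change was 0.32 without the dox library of line 889, 0.44 without the untreated library of line 700 and 1.01 without the dox library of line 700, so the equal values rest on single libraries.

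H2-K1 and H2-D1 share sequence with each other and with other class I genes, so their reads may be split among them. Of the 31-base words in the H2-K1 transcript (GENCODE vM1), 23.6% also occurred in transcripts of other genes, 17.1% in H2-D1. For H2-D1 the share was 27.5%, and for B2m it was 0. H2-L, a class I gene close to H2-D1, followed the line: it was listed at 13.3 to 25.9 FPKM in lines 560 and 889 and at most 0.21 in lines 682 and 700. On plastic, H2-D1 was also higher in lines 560 and 889 than in line 700 within each treatment. The part of shared reads in these levels was not tested.

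**Figure D2:**
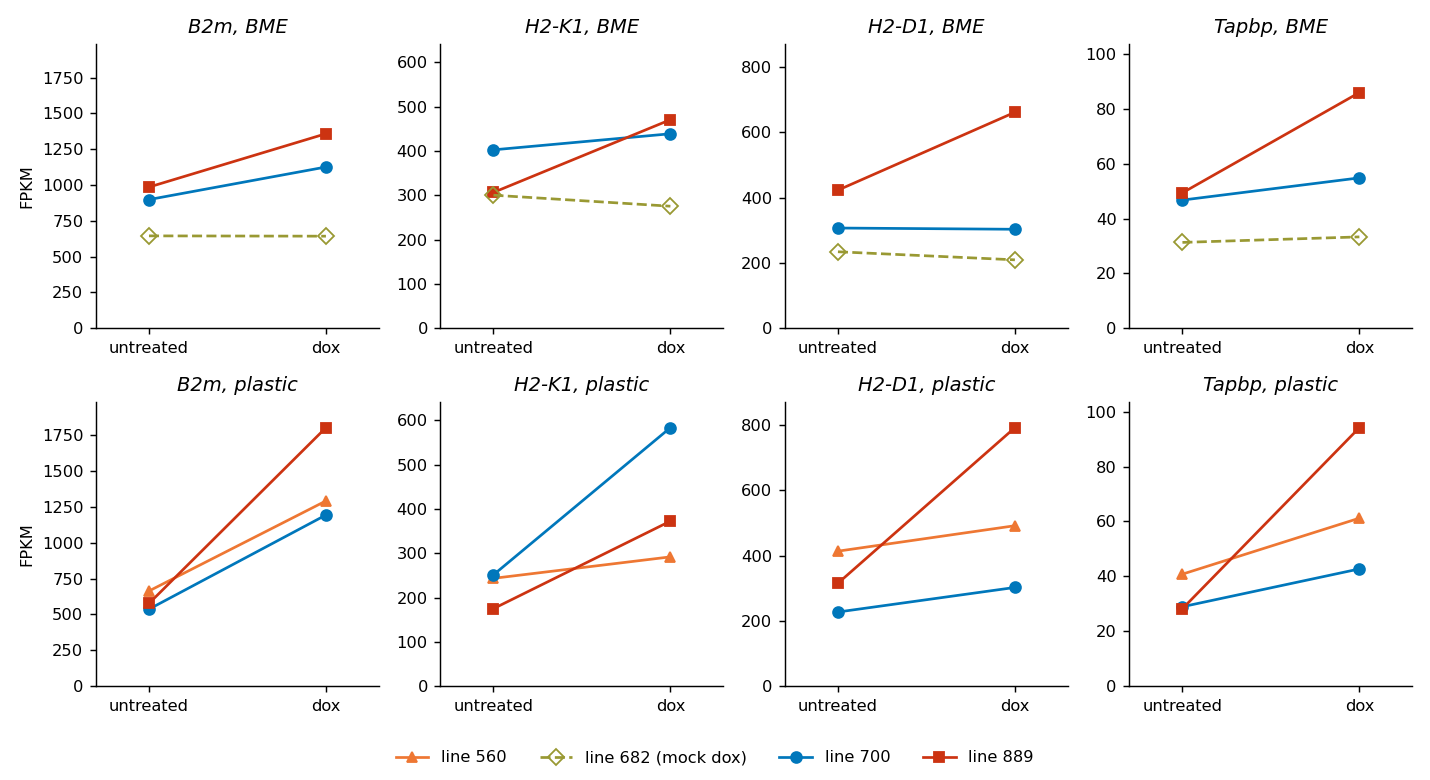
FPKM of B2m, H2-K1, H2-D1 and Tapbp in untreated and dox libraries, joined within a line, with BME above and plastic below. The dashed line with open markers is the mock pair of line 682. All 5 solid lines slope upward for B2m, H2-K1 and Tapbp, and the line 700 pair in BME is the exception for H2-D1.

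Tapbp encodes tapasin, which holds empty class I molecules at the transporter and edits their peptides. On plastic the Tapbp level was 40.8 FPKM untreated and 61.2 with dox in line 560, 28.9 and 42.7 in line 700, and 28.2 and 94.2 in line 889. Every dox library lay above every untreated library, and line 889 had the largest ratio at 3.34. In BME it was 46.7 and 54.8 in line 700 and 49.4 and 85.9 in line 889, beside 31.3 and 33.3 in the mock pair. Both BME dox libraries again lay above the 4 controls, and the line 889 pair had the larger difference. The limma change was 0.94 (SE 0.32) on plastic, with an adjusted p of 0.547, and 0.79 (SE 0.27) in BME, with an adjusted p of 0.959. In BME it was 0.47 without the dox library of line 889 and 0.51 with the line as a block.

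Tap1 and Tap2, the subunits of the peptide transporter, showed no shared direction across the dox pairs. In BME Tap1 was 27.8 FPKM untreated and 24.9 with dox in line 700, 18.6 and 12.05 in line 889, and 14.9 and 13.3 in the mock pair. All 3 BME pairs, the mock pair included, were thus lower with treatment. On plastic Tap1 went from 3.57 to 5.23 in line 560, from 4.53 to 2.90 in line 700 and from 3.13 to 3.37 in line 889. Tap2 in BME stayed between 7.09 and 8.97 FPKM in all 6 libraries. On plastic it went from 4.50 to 8.56 in line 560, from 2.79 to 1.48 in line 700 and from 4.69 to 5.73 in line 889, so line 700 ran against the other lines for both subunits. The limma changes were -0.04 (SE 0.38) for Tap1 and 0.03 (SE 0.16) for Tap2 in BME, and 0.01 (SE 0.26) and 0.14 (SE 0.51) on plastic, with adjusted p-values of 0.971 to 0.995.

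Psmb9 replaces a constitutive catalytic subunit in the immunoproteasome. Its level in BME was 11.96 FPKM untreated and 13.1 with dox in line 700, 14.0 and 10.6 in line 889, and 5.03 and 4.49 in the mock pair. The dox libraries lay within the range of the controls. On plastic the level followed the line, with 4.94 and 5.002 in line 560, 0.311 and 0.180 in line 700, and 1.101 and 2.23 in line 889. The limma change was 0.51 (SE 0.47) in BME, with an adjusted p of 0.959, and 0.16 (SE 0.75) on plastic, with an adjusted p of 0.978. With the line as a block the BME change turned to -0.13. On plastic the Psmb9 change ranged from -0.38 to 0.79 with single libraries left out.

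Psmb8, the immunoproteasome counterpart of Psmb5, was close to the detection limit. In BME it was 1.48 FPKM untreated and 0.762 with dox in line 700 (24 and 11 reads), 0.898 and 0.690 in line 889 (16 and 12 reads), and 0.424 and 0.313 in the mock pair (7 and 5 reads). Each pair was lower with treatment, at a depth of few reads. On plastic it had 5 reads untreated and 2 with dox in line 560, 0 in both libraries of line 700, and 0 and 4 in line 889. A count of 0 allows up to 3 reads, or 0.131 to 0.162 FPKM in these 3 libraries, for counting error only. Psmb8 therefore fell under the filter of a mean FPKM of at least 0.5 on plastic, and its limma change in BME was 0.00 (SE 0.31).

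The constitutive catalytic subunits were far more abundant than their immunoproteasome counterparts. Psmb5, Psmb6 and Psmb7 lay between 87.4 and 165 FPKM in all 12 libraries, on the per-length scale on which genes can be compared. Psmb10, the third inducible subunit, had 9.41 to 30.7 FPKM in BME and 3.35 to 21.1 on plastic. The proteasome activators Psme1 and Psme2 and the assembly factor Pomp were abundant, with Psme1 at 56.0 to 172 FPKM. Of the 5 other immunoproteasome and activator genes tested, none passed the test in either environment, beside 0.0231% of all genes in BME and 0.0324% on plastic, with a median change of 0.29 in BME and -0.11 on plastic. The median over these genes differed by line, at 0.15 in line 700 and 0.03 in line 889 in BME, and on plastic at -0.49 in line 560 (0 of 5 higher), -0.02 in line 700 (2 of 5) and 0.47 in line 889 (5 of 5).

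**Figure D3:**
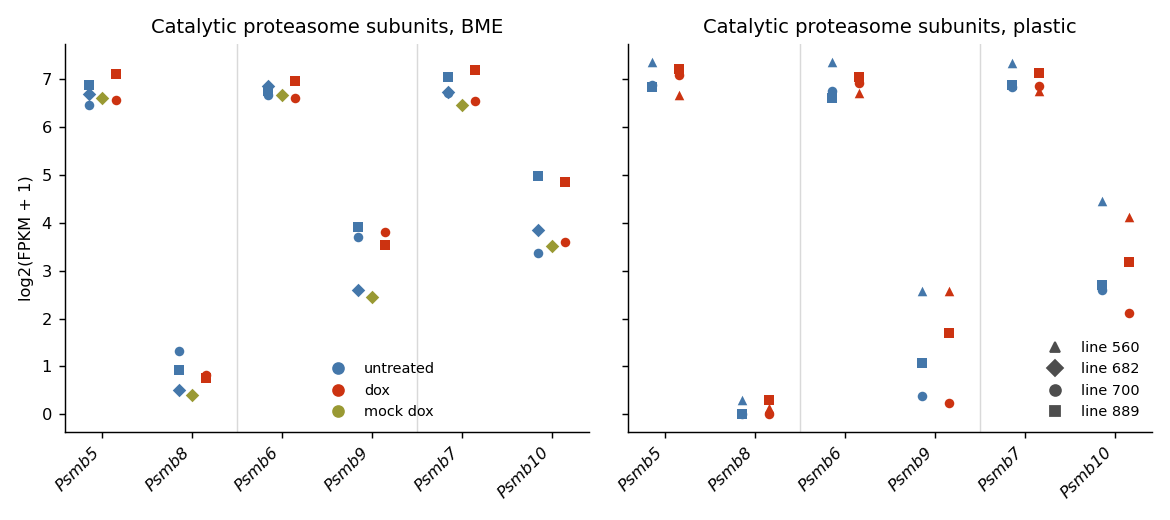
Levels of the constitutive subunits Psmb5, Psmb6 and Psmb7, each beside its inducible counterpart Psmb8, Psmb9 or Psmb10, as log2(FPKM + 1) per library. The constitutive subunits all sit near 7, and Psmb8 is below 1.5 in BME and below 0.5 on plastic.

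Nlrc5, the transactivator of class I genes, was barely detected. In BME it had 20 reads untreated and 10 with dox in line 700, 38 and 7 in line 889, and 1 and 5 in the mock pair, for levels of at most 0.328 FPKM. On plastic it had 2 and 7 reads in line 560, 9 and 0 in line 700, and 12 and 4 in line 889. In lines 700 and 889 fewer reads were found with dox in both environments. Nlrc5 was under the filter in both tables and was not tested.

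Cd74, the invariant chain of class II, had the widest spread of the members. In BME it was 1.71 FPKM untreated and 0.766 with dox in line 700, 1.78 and 16.2 in line 889, and 0.505 and 2.15 in the mock pair. On plastic it went from 1.11 to 7.24 in line 560 and from 0.345 to 6.41 in line 889, and in line 700 from 0.596 to a listed value of 0. Lines 560 and 889 were higher with dox wherever measured, and line 700 was lower in both environments. The limma change was 1.17 (SE 0.86) in BME, with an adjusted p of 0.959, and 1.25 (SE 0.81) on plastic, with an adjusted p of 0.751. Without the dox library of line 889 the BME change turned to -0.47, without that of line 700 it was 2.81, and on plastic it was 2.24 (adjusted p = 0.0552) without the dox library of line 700, 0.72 without that of line 560 and 0.80 without that of line 889.

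Most other class II genes were low in every library. H2-Aa, H2-Ab1, H2-Eb1 and H2-Eb2, which encode the class II chains, were at most 1.02 FPKM in every library, and the highest value was H2-Ab1 in untreated line 700 in BME. H2-DMb2, H2-Oa and H2-Ob were at most 0.76. H2-DMa, a chain of the peptide exchange factor H2-DM, had 2.43 to 3.60 FPKM in BME and 0.35 to 10.4 on plastic, and H2-DMb1 had 0.92 to 5.97 and 1.19 to 3.68. Ciita, the master regulator of class II, was at most 0.11 FPKM. Proteases and the thiol reductase of the class II route were abundant, with Ctsl at 24.9 to 329 FPKM, Lgmn at 18.4 to 55.2 and Ifi30 at 39.7 to 179. Ctss, the protease that trims the invariant chain in professional antigen-presenting cells, was at most 0.55.

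**Figure D4:**
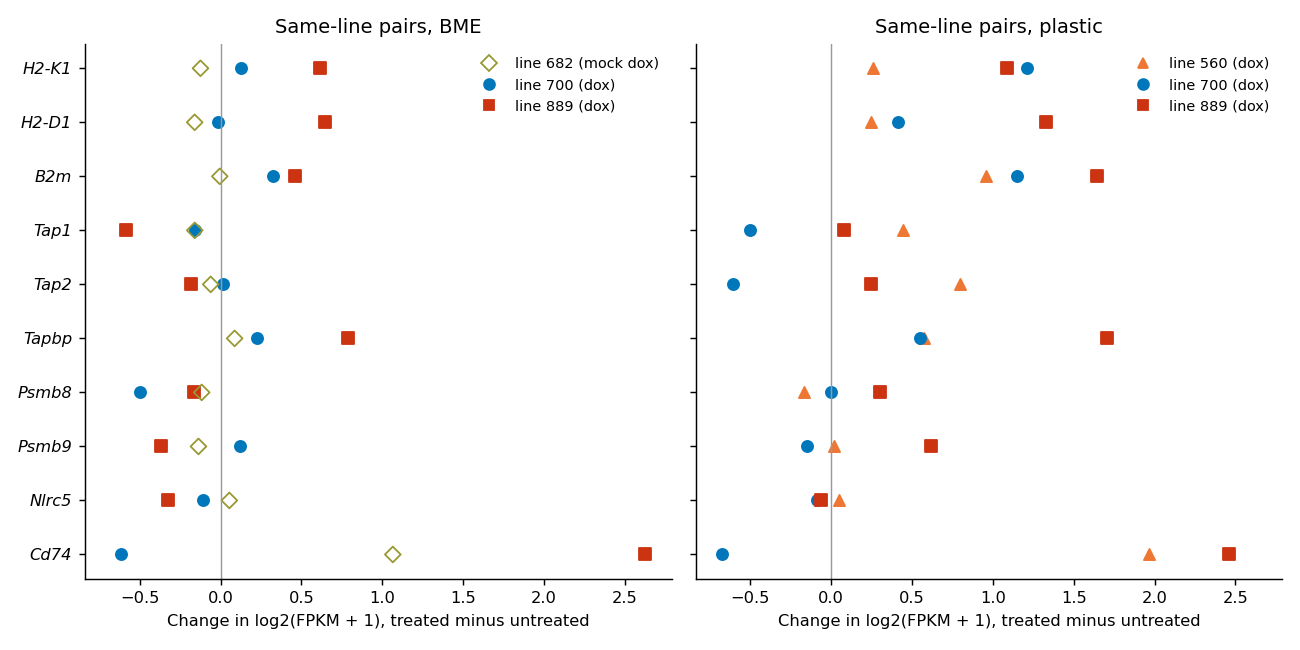
Change of each gene within a line, as the difference in log2(FPKM + 1) of the treated minus the untreated library, in BME (left) and on plastic (right). Points right of 0 are higher with dox, and open markers show the mock pair. B2m, H2-K1 and Tapbp lie right of 0 in all 5 dox pairs, and Cd74 spreads from -0.67 to 2.63.

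Read against all genes, the counts were as follows. In BME 9 of the 10 members passed the filter, and 0 were called, beside 3 of 12996 genes (0.0231%). At an unadjusted p under 0.05 in limma, 3 members were higher with dox (H2-K1, B2m and Tapbp), against 2.62% of all genes (4.09% in either direction). The same 3 were higher in both BME lines, against 27.2% of all genes, and had no overlap between dox and control libraries, against 6.33%. Tap1 and Psmb8 were lower in both BME lines, against 29.5% of genes. The median change of the members tested in BME was 0.51, beside -0.01 over all genes, and 0.31 with the line as a block.

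On plastic 8 members passed the filter, and 0 were called, beside 4 of 12333 genes (0.0324%). H2-K1, B2m and Tapbp again had an unadjusted p under 0.05 in limma and were higher, against 4.56% of all genes (8.29% in either direction), and their arms did not overlap, against 7.87%. With H2-D1, 4 members were higher in every plastic line, against 18.6% of genes. The median change was 0.76, beside 0.01 over all genes. It was 0.48 without the dox library of line 889, and 0.41 without the filter, which adds Psmb8 and Nlrc5. In both environments together 1042 of 11977 genes (8.7%) were higher in all 5 dox pairs, and H2-K1, B2m and Tapbp were among them. Lines 700 and 889 are in both environments, so these pairs are not all independent.

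The lines differed in how far the members moved. On plastic the median change per pair over the 8 members tested was 1.21 in line 889, 0.51 in line 560 and 0.13 in line 700. In BME over 9 members it was 0.46 in line 889, 0.02 in line 700 and -0.12 in the mock pair. Over all genes tested these medians lay between -0.01 and 0.01. The median was thus largest in line 889 in both environments, and B2m, H2-K1, H2-D1, Tapbp and Cd74 were higher with dox in both of its pairs. For H2-K1 on plastic, however, the change was larger in line 700 (1.21) than in line 889 (1.09).

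Leaving out single libraries changed how many members had an unadjusted p under 0.05 in limma. In BME the count of 3 became 0 without the dox library of line 889, without the untreated library of line 682, or without the mock library, and 1 (Tapbp) with the line as a block. On plastic it became 1 (B2m) without either library of line 889.

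**Figure D5:**
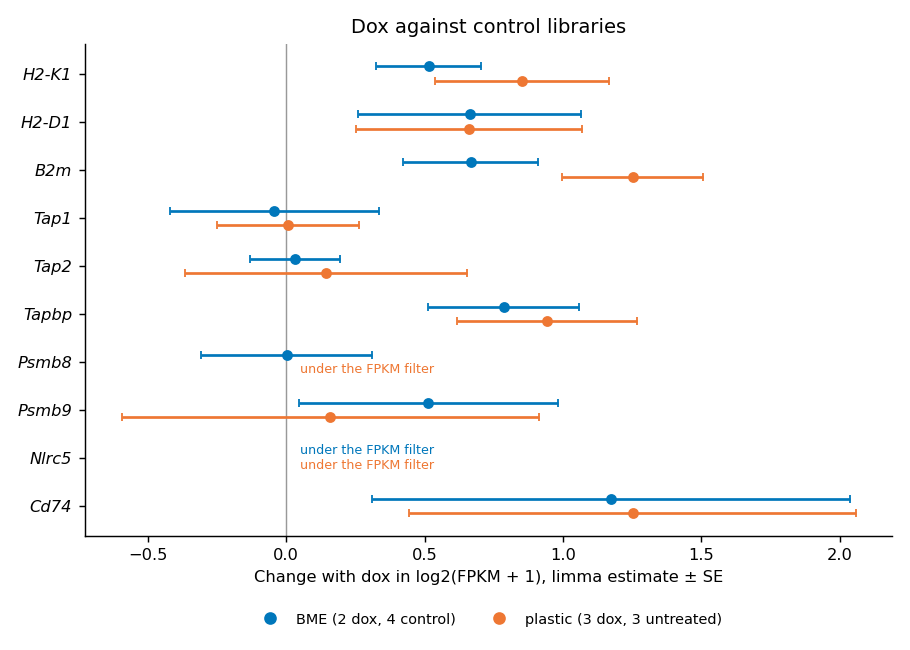
Change with dox by limma in log2(FPKM + 1), with bars of 1 SE, for BME (2 dox against 4 control libraries) and plastic (3 against 3). Both estimates for H2-K1, H2-D1, B2m and Tapbp lie above 0, and those for Tap1 and Tap2 lie close to 0 with bars across it. Genes with a mean under 0.5 FPKM were not tested.

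Whether the dox change differed between environments was tested as an interaction over 11977 genes. By limma 0 genes were called (0%), and 303 (2.53%) had an unadjusted p under 0.05. Of the 8 members tested, none was at an unadjusted p under 0.05. B2m had a change larger on plastic by 0.58 (SE 0.34, adjusted p = 1). Blocking by line gave a difference of 0.86 (adjusted p = 0.877), and restricting the test to the lines present in both environments gave 1.00 (adjusted p = 1). H2-K1 differed by 0.34 (SE 0.38), Tapbp by 0.16 (SE 0.45), Psmb9 by -0.35 (SE 0.98), and H2-D1 by 0.00 (SE 0.61). The H2-K1 difference was 0.065 without the plastic dox library of line 700, 0.56 without that of line 560 and 0.78 over the lines present in both environments. The standard errors given leave room for a difference in either direction for B2m, H2-K1, Tapbp, Psmb9 and H2-D1.

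The wider antigen presentation lists held 98 further genes, of which 97 were in the tables, 82 were tested in BME and 73 on plastic. None passed the adjusted threshold. At an unadjusted p under 0.05 in limma, 1 was higher and 0 were lower in BME, beside 2.62% of all genes higher, and 6 were higher and 0 were lower on plastic, beside 4.56%. The median change was 0.17 in BME and 0.24 on plastic. The BME value comes from a control arm that holds the line 682 libraries, and within lines the median turned, to -0.04 in line 700 (38 of 82 genes higher) and -0.11 in line 889 (26 of 82).

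Ifngr1, a chain of the receptor for interferon gamma, was the gene with the lowest p in these lists. Its level in BME was 91.6 FPKM untreated and 201 with dox in line 700 and 79.2 and 133 in line 889. The mock pair had 69.8 and 138, a change of 0.97 that lay between the changes of the dox pairs (0.74 in line 889 and 1.12 in line 700). On plastic it went from 54.3 to 105 in line 560, from 52.2 to 132 in line 700 and from 42.7 to 114 in line 889. All 6 pairs were higher, the mock pair included. The limma change was 1.22 (SE 0.19) on plastic, with an adjusted p of 0.157, and 0.83 (SE 0.31) in BME, with an adjusted p of 0.959.

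Other class I and class I-like genes had a median change of 0.27 over 16 tested in BME and 0.25 over 10 on plastic. Within the BME lines the median again turned, to -0.02 in line 700 (8 of 16 higher) and -0.10 in line 889 (5 of 16). The largest changes in BME were H2-L at 1.14 (SE 1.63) and H2-Q1 at 0.84 (SE 0.56), with adjusted p-values of 0.965 and 0.959. H2-L stood apart by line, as above. H2-Q1 went from 5.12 to 15.4 FPKM (line 700) and from 11.4 to 5.92 in line 889, in opposite directions. H2-T23, the non-classical class I gene that encodes Qa-1, had 147 FPKM untreated and 143 with dox in line 700 in BME, 83.6 and 130 in line 889, and 74.3 and 57.4 in the mock pair. On plastic it went from 56.5 to 65.5 in line 560, from 34.0 to 36.5 in line 700 and from 35.7 to 76.3 in line 889. Other loading and trimming factors had medians of 0.04 in BME and 0.24 on plastic over 10 genes. Within the BME lines the median was -0.04 in line 700 and -0.10 in line 889, with 4 of 10 genes higher in each, and on plastic it was 0.18 in line 560, 0.03 in line 700 and 0.30 in line 889. Of these factors, the chaperones Calr and Pdia3 were the most abundant at 270 to 799 and 163 to 323 FPKM.

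Interferon-stimulated genes had pair medians of different sign by line and environment. In the interaction with environment by limma, 0 of 21 were called and the lowest unadjusted p was 0.193, while the difference between lines was not tested. On plastic all 21 tested were higher with dox in line 560 (median change 1.18) and 16 of 21 in line 889 (median 1.11), but 10 of 21 in line 700 (median -0.01). In BME 1 of 24 was higher in line 889 (median -0.75), 9 of 24 in line 700 (median -0.19) and 5 of 24 in the mock pair (median -0.17), although the limma median in BME was 0.30. The plastic changes by limma were 2.17 (SE 0.61) for Irf7, 1.89 (SE 0.80) for Ifit3, 1.81 (SE 0.76) for Ifit1 and 1.73 (SE 0.94) for Isg15, with adjusted p-values of 0.454 to 0.679.

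Levels by line are given for some of these genes. Ifit3, an antiviral effector, went from 0.48 to 9.44 FPKM in line 889 on plastic and from 27.7 to 3.17 in the same line in BME. Irf7, a transcription factor of the interferon response, went from 17.9 to 58.5 in line 560, from 4.27 to 19.4 in line 700 and from 4.60 to 40.6 in line 889 on plastic. In BME Irf7 was 109 and 120 in line 700 and 82.7 and 58.9 in line 889. Isg15, a ubiquitin-like modifier, went from 2.89 to 16.7 in line 560, from 0.593 to 1.07 in line 700 and from 2.80 to 22.3 in line 889 on plastic, and in BME it was 23.1 and 26.0 in line 700 and 37.5 and 23.8 in line 889. The limma change of Isg15 in BME was 1.02 (SE 0.90, adjusted p = 0.959), although its dox pairs ran in opposite directions, since the line 682 controls had 3.52 and 5.36 FPKM.

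The genes with a pattern most like the class I pathway were found by Pearson correlation with the mean of the 8 class I pathway members over the 12 libraries, each table centred on its own mean, among 11071 genes. They were P4ha1 (r = 0.947), Isg15 (0.941), Erp44 (0.939), Tubb4a (0.925) and H2-T23 (0.919). These are descriptions over libraries that share lines, so they carry no test. P4ha1, a collagen prolyl hydroxylase subunit, went from 20.4 to 30.6 FPKM in line 560, from 9.23 to 17.5 in line 700 and from 9.62 to 48.4 in line 889 on plastic. Erp44, a folding factor of the secretory route, went from 13.5 to 15.9, from 10.1 to 13.0 and from 11.03 to 20.7 in the same lines. In BME P4ha1 went from 19.9 to 28.6 in line 700 and from 18.4 to 21.9 in line 889, and the mock pair, from 5.74 to 8.94, had a larger log2 change (0.56) than either dox pair (0.50 and 0.24). The log2 changes of Erp44 in BME were 0.14 in line 700, 0.06 in line 889 and 0.11 in the mock pair.

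The tissue label was checked against markers. All 9 epithelial markers were above 0 in every library. Their summed level was 7912 to 9864 FPKM in the dox libraries and 4240 to 5244 in the controls of BME, and 11909 to 17390 with dox and 13256 to 14543 untreated on plastic. In BME the keratins Krt8, Krt18 and Krt19 were higher with dox at an unadjusted p under 0.05 in limma, beside the class I genes, and their part in the class I values was not tested. On plastic 6 of the 9 had a positive limma change and 3 a negative one (median 0.31). Krt20 was at 1.32 (SE 0.67) and Epcam at 0.97 (SE 0.52). Krt19 was lower with dox at an unadjusted p under 0.05 (change -0.95, SE 0.35, adjusted p = 0.567). That threshold was reached by 8.29% of all genes in either direction. Cldn7 was also lower (change -0.40, SE 0.24, adjusted p = 0.723). Krt8 and Krt18 had changes of 0.15 (SE 0.30) and 0.35 (SE 0.39) on plastic. In the interaction by limma, Krt19 differed by -1.98 (SE 0.47) and Krt8 by -0.98 (SE 0.34), both with an adjusted p of 1.

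Professional antigen-presenting cells were looked for with 16 immune markers. Ptprc was at most 0.10 FPKM, Cd3e at most 0.06 and Itgax at most 0.03, and Adgre1 was listed at 0 in all 12 libraries. Cd8a was at most 0.64 and Lyz2 at most 0.66. Csf1r, a receptor of macrophages, was 0.85 to 1.26 FPKM untreated and 0.15 to 0.47 with dox on plastic (limma change -0.55, SE 0.23, adjusted p = 0.599), and 0.17 to 0.58 in BME. The summed immune level was 7.38 to 12.6 FPKM with dox and 7.76 to 18.5 in the controls of BME, and 4.49 to 39.7 with dox and 3.80 to 16.3 untreated on plastic. Cd68, a lysosomal protein, was most of the sum in every library, at 6.04 to 16.1 FPKM in BME and 2.70 to 38.7 on plastic. The sums thus mainly follow this 1 gene. Its highest value was in the dox library of line 889 on plastic, where Cd74 was 6.41. In line 560 on plastic the immune sum was 16.3 untreated and 13.6 with dox, while Cd74 was 1.11 and 7.24. In line 889 in BME the sum was 10.6 untreated and 7.38 with dox, the lowest of BME, while Cd74 was 1.78 and 16.2. Fibroblast markers summed to at most 5.83 FPKM and endothelial markers to at most 4.14, both in the dox library of line 889 in BME, where Cd74 was highest. Most of these 2 sums was Col1a1 (4.13) and Tek (3.62). In the BME dox libraries Thy1 was at most 0.04 and Pecam1 at most 0.03. The source of Cd74 was not tested.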

How the data were processed

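RNA-Seq of 12 mouse organoid libraries was analysed from the FPKM tables that the authors deposited, 1 per environment with 6 libraries each. Per the study's methods the authors used kallisto and DESeq2, and the submitters' processing notes name mm9. Versions are not given in the sources used here. Median-ratio factors were equal across libraries, so the deposited FPKM were already scaled in that way. The authors' tables of their own comparison (mean normalized count, log2 fold change, standard error, Wald statistic and p-values) were not used. FPKM corrects for length and depth, here with that scaling. How reads shared between genes were assigned was not tested.

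A mean of 0.5 FPKM was the lower limit for a test, which 12996 genes passed in BME and 12333 on plastic. Two-sided limma 3.58.1 fits (R 4.3.3, lmFit and trended eBayes) were made on log2(FPKM + 1) with no block, since the study's methods name none. Benjamini-Hochberg adjustment covered all genes tested, and a call needed both an absolute change over 1 and an adjusted p under 0.05. BME compared 2 dox with 4 control libraries and plastic 3 with 3. The interaction with environment covered 11977 genes. The scripts were tested on simulated data.

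Line numbers pair the samples, since same-numbered libraries were taken as the same organoid line. The deviations of same-line libraries from their group means correlated at 0.61 and 0.66 in BME and 0.25 to 0.61 on plastic. Reads were recovered for Psmb8 and Nlrc5 from the steps between low FPKM values, where 75.9% of low genes in BME and 64.0% on plastic came out whole in every library within 0.05 reads. Alternatives were a pseudocount of 0.1, no filter, median-ratio scaling, a line block, the mock library left out, single libraries left out and shared lines only. The members and lists were chosen with earlier results of these data known. Named genes were all 10 members, the 4 wider-list genes with the largest absolute change per environment, any gene called, class II genes listed above 0 and the 5 genes most alike in pattern. Genes named beyond this rule (proteasome, loading, other class I, marker and regulator genes) were chosen after their values were seen. Sequences were read from RefSeq promoters (GRCm38.p6) and gene positions from GENCODE vM1 (NCBIM37, the same build as mm9). Shared 31-base words were not analysed for Nlrc5.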

Additional observations from a re-analysis of the deposited data

How the results depend on the processing

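No member was called under any alternative, and over 281 member results, leaving out median-ratio scaling, whose factors were equal and could change nothing, 232 kept their direction and 49 turned, with a lowest adjusted p of 0.0552 (Cd74 on plastic without the dox library of line 700). B2m, H2-K1 and Tapbp kept a higher level with dox in each environment under every alternative run. The pairing by line was applied as a replicate block: the count of members at an unadjusted p under 0.05 went from 3 to 1 in BME and from 0 to 1 in the interaction, and stayed at 3 on plastic; it changed no call of a member. Under the block, Tap2 (-0.083), Psmb8 (-0.33) and Psmb9 (-0.13) turned in BME, and H2-D1 (0.35) and Psmb9 (0.29) in the interaction. With the mock library left out the BME count was 0, Tap2 (-0.017) and Psmb8 (-0.13) turned in BME, and H2-D1 (0.14) and Cd74 (-0.043) turned in the interaction. With lines 700 and 889 only, the interaction count was 1, and H2-D1 (0.56), Tap2 (-0.10), Psmb9 (0.36) and Cd74 (-0.11) turned. A pseudocount of 0.1 turned Cd74 in the interaction (-0.13).

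With single libraries left out, the count ranged from 0 to 3 in BME, from 1 to 4 on plastic and was 0 in the interaction. The changes that turned in BME ranged from -0.54 to 0.45 for Tap1, -0.094 to 0.16 for Tap2, -0.089 to 0.18 for Psmb8 and -0.47 to 2.81 for Cd74. On plastic they ranged from -0.19 to 0.15 for Tap1, -0.26 to 0.71 for Tap2 and -0.38 to 0.79 for Psmb9. In the interaction they ranged from -0.56 to 0.56 for H2-D1, -0.44 to 0.54 for Tap1, -0.30 to 0.68 for Tap2, -0.16 to 0.47 for Tapbp, -0.89 to 0.28 for Psmb9 and -1.56 to 1.72 for Cd74. The cause was not tested. Where BME was left with 1 dox library, that library was assumed to vary like the controls. The number of genes called also moved, from 3 to between 0 and 37 in BME and from 4 to between 0 and 55 on plastic, and from 0 to 5 in the interaction without the filter. Depth limits Psmb8 and Nlrc5, which had at most 38 reads in a library, and 2 to 4 libraries per arm limit the rest.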
